A study of Mus musculus with 12 samples.

Results

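The dermal papilla and the dermal sheath are the 2 mesenchymal compartments of the hair follicle, and their transcriptomes were compared here across 11604 of the 24692 entries of the deposited expression table. Entries with at least 1 FPKM in at least 3 of the 6 libraries were kept. FPKM is a level per length, fragments scaled by transcript length and by the mapped total. There were 3 libraries of dermal papilla cells (replicates 1, 2 and 4) and 3 of cells labelled dermal sheath (replicates 4, 5 and 1, the last carrying the column name DSL1). Both groups came from the back skin of male Sox2:GFP/aSMA:dsRed mice, aged postnatal day 26 to 27 and in early anagen, the start of hair growth. Those mice carry a green reporter named for Sox2, a transcription factor of the papilla, and a red reporter named for smooth muscle actin. Dispase and collagenase freed the cells, which were antibody-stained and sorted by flow cytometry. The labels name neither the antibodies nor the gate of each population. The remaining 6 of the 12 libraries of the series, from hair follicle dermal stem cells and interfollicular dermis of the same kind of mice, entered the model for its estimate of spread. They are used as a second comparison at the end.

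The dermal papilla is a small cluster of specialised fibroblasts enclosed by the epithelial bulb of the follicle. It sends Wnt-modulating, BMP, FGF and other signals to the epithelium around it, whose matrix cells divide and build the hair. The dermal sheath is a thin cup and tube of mesenchymal cells outside the basement membrane of the follicle and is known for contractile genes. In anagen the proliferating cells of a follicle are mostly epithelial, and the papilla is known as a largely quiescent tissue.

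Values below are FPKM in papilla replicates 1, 2 and 4 and in sheath-labelled replicates 4, 5 and 1, in that order. A log2 difference is papilla minus sheath-labelled on the log2(FPKM + 1) scale, which understates the change of low genes, with its standard error (SE) and a Benjamini-Hochberg adjusted p from limma, a linear model fitted across all tested genes. Group levels are means ± SD of 3 libraries. A gene is called higher or lower at an adjusted p under 0.05, and a signed value given for a gene without a unit is its log2 difference. Because a gene could pass the minimum through one group alone, in which case it had to differ, counts over tested list members are descriptions. Beside them stand the shares of all tested genes, 17.2% called higher and 36.6% called lower in papilla. The deposited table holds no coordinates, and genome positions were taken from the RefSeq gene table on GRCm38.p6, the assembly that mm10 denotes. The labels do not say that replicates came from separate animals, so a p-value here covers library-to-library spread, part of which may be technical.

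The genes that the 2 reporters are named for were examined first, and then fibroblast and keratinocyte markers. Sox2 was read at 0.882, 2.66 and 7.17 FPKM in the papilla libraries and at 0.292, 0.13 and 0.0373 in the sheath-labelled libraries, so the groups did not overlap, but Sox2 did not reach the minimum for testing. Acta2, the smooth muscle actin gene, was read at 29.3, 86.4 and 20.5 and 36.2, 76 and 35.8 FPKM (log2 difference -0.3, SE 0.45, adjusted p = 0.593). The 2 ranges overlapped, and the sign of this difference turned with median-of-ratios scaling (0.15), without papilla replicate 4 (0.12) and without sheath-labelled replicate 5 (0.06). In the dermal stem cell libraries Acta2 stood at 866, 901 and 850 FPKM, above all 6 libraries compared here. Universal fibroblast markers, a list of 29 genes that most dermal fibroblasts share, summed to 20936 to 35823 FPKM in papilla and to 1328 to 2502 in the sheath-labelled libraries. Of 28 tested, 27 were higher in papilla, where 17.2% of all tested genes were, and none lower. Keratinocyte genes ran the other way in part, with Krt5, a keratin of the basal layer, at 142, 198 and 81 and 366, 411 and 406 FPKM (log2 difference -1.57, SE 0.35, adjusted p = 0.00256). The data therefore go against the sheath label in low fibroblast transcripts and in high transcripts of part of the basal keratinocyte genes. Acta2 was not distinguished between the groups. "Sheath-labelled" names those libraries here by their label alone.

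The papilla libraries held markers of other cell types too, at levels that differed between replicates. Summed over 25 differentiated epidermis genes they had 9650, 9474 and 2373 FPKM in replicates 1, 2 and 4, against 747, 319 and 359 in the sheath-labelled libraries. For 15 melanocyte genes the sums were 1049, 738 and 275 against 35.1 to 41.6. For 22 immune cell genes they were 1751, 938 and 589 against 77.2, 68.8 and 739, the last being sheath-labelled replicate 1. Papilla signature genes were highest in replicate 4, with sums of 765, 1308 and 3892 against 305, 166 and 191. The part of these cell types in the differences below was not tested, and fewer cells of a type cannot be told apart from less RNA per cell in sorted bulk samples. Some counts are also given without papilla replicates 1 and 2 together, a setting added after seeing the data. It leaves 1 papilla library, replicate 4, whose spread is assumed to be that of the other groups, so those counts describe that library. Under it the universal fibroblast list had 27 members higher and none lower, the fibrillar collagens 12 and none, the small leucine-rich proteoglycans 8 and none, the Hedgehog genes 3 and 6, the smooth muscle genes 2 and 3 and the melanocyte genes 8 and 1.

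**Figure D1:**
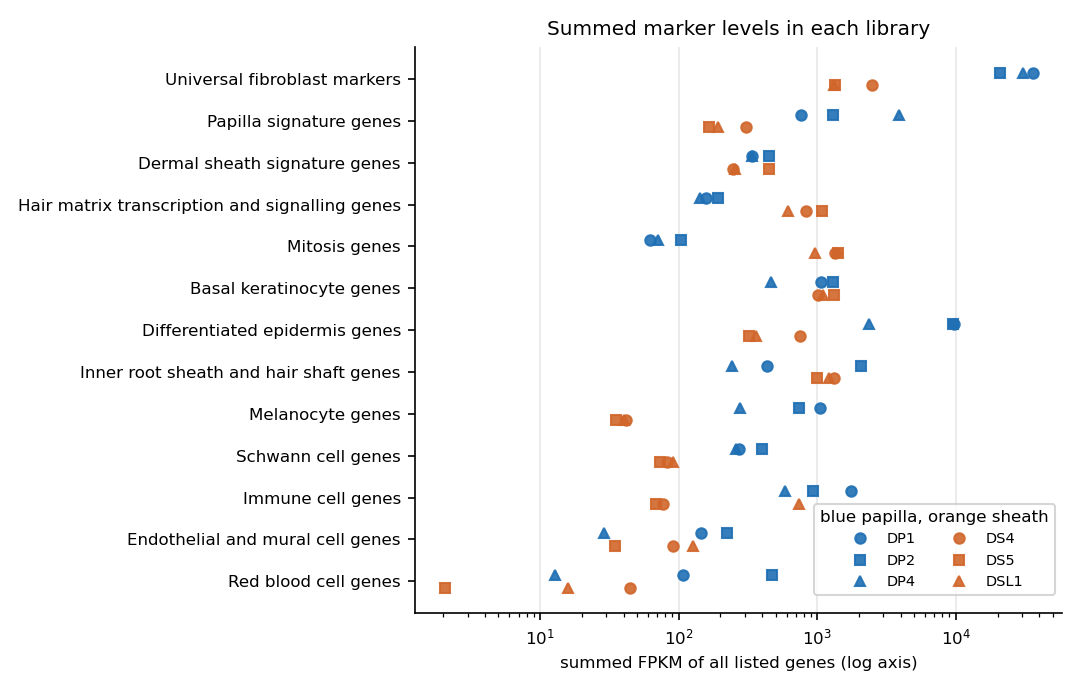
Summed FPKM of each gene list (rows) in each of the 6 libraries on a log axis, with blue for papilla and orange for sheath-labelled libraries and one symbol per replicate. Universal fibroblast markers separate the groups at 20936 to 35823 against 1328 to 2502 FPKM, and mitosis genes separate them in the other direction.

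Across libraries the sum of FPKM was 206055 to 239132 in papilla and 190386 to 218817 in the sheath-labelled libraries, and 10711 to 11486 genes reached 1 FPKM. Read numbers are not in the table and depth is unknown, although the smallest steps between low values put the 5 other libraries at 0.418 to 0.574 of the depth of sheath-labelled replicate 1. Correlations of log2 values across tested genes, which are not independent replicates, were 0.838 to 0.92 within papilla, 0.912 to 0.925 within the sheath-labelled group and 0.52 to 0.625 between them.

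Most tested genes differed between the groups, with fibroblast, matrix and secreted signalling genes on the papilla side and cell division, epithelial regulator and ribosome biogenesis genes on the sheath-labelled side. Of 11604 genes, 6248 were called (53.8%), 2000 higher in papilla (17.2%) and 4248 higher in the sheath-labelled libraries (36.6%). By at least 2-fold, 1707 (14.7%) and 3140 (27.1%) were called. A log2 difference of at least 3 was passed by 325 genes higher in papilla (2.80%) and 184 lower (1.59%). The 3 papilla values lay wholly above or below the 3 sheath-labelled values for 6827 genes (58.8%), above for 2156 (18.6%) and below for 4671 (40.3%). The median log2 difference over all tested genes was -0.42. Scaling moved that median and the split of the calls: 32.0% of calls were higher in papilla as deposited, 50.7% after median-of-ratios scaling (median shifted by 0.37) and 43.8% after quantile normalization (shifted by 0.25). Leaving out papilla replicates 1 and 2 together gave 1469 higher and 3466 lower.

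**Figure D2:**
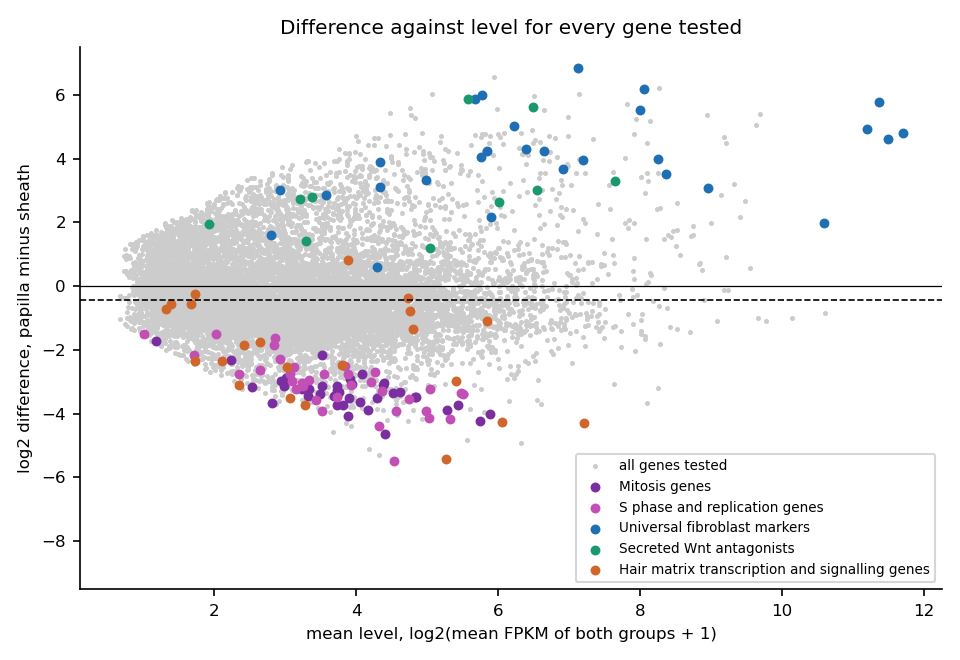
Each grey point is 1 of the 11604 genes tested, with its mean level over both groups on the horizontal axis and its log2 difference, papilla minus sheath-labelled, on the vertical axis. The dashed line is the median of all genes at -0.42. Mitosis and S phase genes (purple, magenta) lie below it and fibroblast markers and Wnt antagonists (blue, green) above, while hair matrix genes (orange) run from near the line downward.

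The largest differences toward papilla were in matrix and secreted proteins. Clec3b, which encodes the plasminogen-binding protein tetranectin, was read at 352, 188 and 289 FPKM in papilla and at 1.18, 1.34 and 1.51 in the sheath-labelled libraries (log2 difference 6.84, SE 0.4, adjusted p = 3.54e-07; chromosome 9, 123150946 to 123157432). The lowest papilla library lay far above the highest sheath-labelled one. Gpx3, a secreted glutathione peroxidase, had 785, 429 and 595 against 12.8, 2.07 and 10.4 FPKM (log2 difference 6.22, SE 0.55, adjusted p = 4.47e-06). Dpt, the matrix protein dermatopontin, had 600, 378 and 582 against 11.2, 3.42 and 5.49 (log2 difference 6.18, SE 0.49, adjusted p = 2.23e-06). Ptx3, a secreted pattern recognition protein, and Tnfaip6, a hyaluronan-binding protein induced by inflammatory signals, differed by 6.04 and 5.59. Mfap5, a microfibril protein, and Pi16, a marker of adventitial fibroblasts, differed by 5.98 and 5.87. Gfpt2, of the hexosamine pathway, and Cthrc1, a secreted collagen triple helix protein, stood at 5.54 and 5.38. Krt1 and Krtdap, both of suprabasal epidermis, were also among the top 15 (5.71 and 5.39). Both are members of the differentiated epidermis list summed above, and Krt1 was 670, 427 and 216 FPKM in papilla replicates 1, 2 and 4.

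On the sheath-labelled side the largest differences were in homeobox and cell cycle genes. Dlx2, a homeobox factor, was read at 0.157, 2.27 and 0.118 FPKM in papilla and at 66.5, 113 and 41.1 in the sheath-labelled libraries (log2 difference -5.41, SE 0.54, adjusted p = 1.02e-05; chromosome 2, 71543408 to 71546754). Lhx2, a LIM homeobox factor known in follicle epithelial stem cells, had 2.19, 3.3 and 0.981 against 89.7, 134 and 47.8 (log2 difference -4.81, SE 0.53, adjusted p = 1.87e-05). Cux1, a homeobox factor known in the inner root sheath lineage, had 12.5, 20.4 and 8.56 against 235, 355 and 246 (log2 difference -4.29, SE 0.33, adjusted p = 1.98e-06). No papilla library reached the lowest sheath-labelled library for any of the 3 genes. Dlx3, a regulator of hair matrix differentiation, differed by -4.26, the zinc transporter gene Slc39a10 by -4.91 and the Myc family gene Mycl by -4.24. Among the top 15 were also Nmral1 (-4.28), a redox sensor gene, Hells (-4.19), a chromatin remodeller of dividing cells, the condensin subunit gene Ncapd2 (-4.18) and Incenp (-4.04) of the chromosomal passenger complex.

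Of the 36 papilla signature genes listed, 30 were tested, 22 were higher in papilla and none lower. Their median log2 difference was 2.73, against -0.42 over all genes. Crabp1, a retinoic acid binding protein typical of papilla, was read at 86.2, 211 and 636 FPKM in papilla and 19, 7.24 and 3.77 in the sheath-labelled libraries (log2 difference 4.62, SE 0.67, adjusted p = 0.000134; chromosome 9, 54764748 to 54773110). The 3 papilla libraries spread over a wide range, with replicate 4 highest. Corin, a serine protease gene of the papilla, had 37.7, 45.6 and 81.3 against 5.39, 1.39 and 6.51 (log2 difference 3.45, SE 0.49, adjusted p = 0.000126). Vcan, the proteoglycan versican, had 61.8, 92.9 and 302 against 22.8, 13.8 and 10.3 (log2 difference 2.94, SE 0.5, adjusted p = 0.00044). Alpl, the alkaline phosphatase used to stain papillae, had 3.76, 15.5 and 56.1 against 4.54, 1.48 and 3.31 (log2 difference 2.08, SE 0.74, adjusted p = 0.03). The Alpl groups overlapped, and its call ended under 7 alternative settings, among them the fit to the 6 libraries alone (highest adjusted p = 0.128). Enpp2, which makes lysophosphatidic acid, differed by 3.54, adjusted p = 0.00032, the neuregulin gene Nrg2 by 3.14, adjusted p = 0.000415, the leptin receptor gene Lepr by 3.18, adjusted p = 0.000332 and the contactin gene Cntn1 by 3.02, adjusted p = 9.27e-05. Lef1, a Wnt-responsive transcription factor, did not pass, at 6.72, 17.9 and 33.6 against 49.8, 36.6 and 12.1 FPKM (-0.77, adjusted p = 0.236). The sign for Lef1 turned without papilla replicates 1 and 2 (0.24), and Lef1 was called lower without sheath-labelled replicate 1 (-1.35, adjusted p = 0.0377).

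Replicate 4 was the highest papilla library for 28 of the 30 papilla signature genes tested, a share of 93.3%, while over all tested genes it was the highest for 32.9%. Among 13 tested condensate and papilla transcription factors, 7 were higher in papilla and 2 lower. Twist1 had 46.5, 56.9 and 115 against 6.96, 2.06 and 4.33 FPKM (3.75, adjusted p = 8.61e-06), and Tbx15, Twist2 and Alx4, of dermal mesenchyme, differed by 3.12, 2.87 and 2.6. Prdm1, a repressor expressed in dermal condensates, had 22, 16.8 and 15.2 against 3.89, 2.96 and 4.53 (1.98, adjusted p = 4.47e-05). Runx1 and Foxp1 were lower in papilla (-1.08 and -1.76), Runx1 with its call lost under median-of-ratios scaling and without papilla replicates 1 and 2. Of 25 tested mesenchymal transcription factors 20 were higher and none lower, with Osr2 at 4.4, Prrx1 at 3.32 and Ebf1 at 3.08. Snai2 had 17.7 ± 10.3 FPKM in papilla and 18.9 ± 7.82 in the other group (-0.14, adjusted p = 0.78), and its sign turned under 7 settings.

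Matrix genes were among the most one-sided. Of 17 tested fibrillar and associated collagen genes 13 were higher in papilla and none lower (median 3.26), and of 9 tested small leucine-rich proteoglycans, which bind collagen fibrils, 9 were higher (median 2.99). Col3a1 had 6107, 4125 and 5287 against 219, 47.4 and 74.4 FPKM (log2 difference 5.78, SE 0.65, adjusted p = 2.27e-05), and Col1a2 5539, 3019 and 5052 against 297, 131 and 75.8 (log2 difference 4.93, SE 0.7, adjusted p = 0.000122). For both genes the groups stood far apart. Lum (lumican), Ogn (osteoglycin) and Aspn (asporin) differed by 5.53, 5.3 and 4.71. Of 22 tested collagen folding and crosslinking genes 18 were higher and none lower, with the procollagen enhancer gene Pcolce at 625, 384 and 635 against 14.1, 14.6 and 12.4 (5.19, adjusted p = 2.58e-07) and the lysyl oxidases Lox and Loxl1 at 4.76 and 4.56. Of 16 tested elastic fibre genes 13 were higher and 1, Ltbp3, was lower (-1.25, adjusted p = 0.00754; not called under median-of-ratios scaling), and fibrillin Fbn1 had 109, 104 and 109 against 5.85, 2.11 and 7.78 FPKM (4.24, adjusted p = 1.67e-05). Of 19 tested matrix metalloproteinases and inhibitors 11 were higher, with Mmp2 at 4.9, adjusted p = 1.27e-05, and 1, Timp3, was lower (-1.38, adjusted p = 0.000974).

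Basement membrane genes split between the groups, 9 higher in papilla and 6 lower of 27 tested (median 0.23), beside 17.2% and 36.6% of all tested genes. The nidogen gene Nid1, a linker protein, had 121, 117 and 116 against 6.86, 7.57 and 10.6 FPKM (log2 difference 3.69, SE 0.34, adjusted p = 5.58e-06). Lama4, a laminin chain, had 25.9, 28.7 and 29 against 1.2, 0.229 and 3.73 (3.62, adjusted p = 8.28e-05), and Lama2 differed by 2.75, adjusted p = 0.000447. The laminin alpha-5 gene Lama5 went the other way, at 1.09, 2.12 and 0.93 against 14.1, 28.9 and 27.7 (log2 difference -3.33, SE 0.36, adjusted p = 1.75e-05). Agrn, the proteoglycan agrin, also went lower in papilla (-2.35, adjusted p = 0.000205), as did the Fraser complex genes Fras1 and Frem2 (-1.1 and -1.28). Papilla and sheath-labelled values for Nid1 and Lama5 did not overlap in either direction. Col18a1 and Col4a6, lower in papilla at -0.96, adjusted p = 0.0423 and -0.9, adjusted p = 0.0346, lost their calls with 9 and 10 of the alternative settings.

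Wnt pathway genes divided by role. Of 10 tested genes listed as secreted Wnt antagonists, most of which bind Wnt ligands or their receptors, all 10 were higher in papilla (median 2.77). Of 22 tested Wnt receptor, R-spondin and co-receptor genes 4 were higher in papilla and 14 lower (median -1.13). The 4 were the R-spondin ligands Rspo1, Rspo2, Rspo3 and Rspo4, secreted proteins that stabilise Wnt receptors at the cell surface, and the lower ones included Lgr4, Lgr5 and Lgr6, the receptors that bind R-spondins. Rspo3 had 32.4, 63.8 and 198 FPKM in papilla against 2.91, 1.71 and 1.07 (log2 difference 4.75, SE 0.52, adjusted p = 1.77e-05; chromosome 10, 29453106 to 29535867). Rspo4 had 23.8, 22.4 and 85.8 against 4.51, 0.18 and 1.36 (log2 difference 3.89, SE 0.62, adjusted p = 0.000255), Rspo1 23.9, 32.3 and 115 against 5.15, 1.54 and 2.91 (3.54, adjusted p = 0.000271) and Rspo2 8.03, 12.3 and 43.1 against 1.42, 0.59 and 0.695 (3.22, adjusted p = 0.000129). For each R-spondin, replicate 4 had the most of the papilla libraries, and the lowest papilla library lay above the highest sheath-labelled one.

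The R-spondin receptors followed the opposite order. Lgr6, an R-spondin receptor of follicle epithelium, was read at 0.215, 0.767 and 0.202 FPKM in papilla and 9.48, 20.9 and 9.23 in the sheath-labelled libraries (log2 difference -3.28, SE 0.33, adjusted p = 1.16e-05; chromosome 1, 134983300 to 135105374). Lgr5, of cycling follicle stem cells, had 1.92, 2.2 and 2.48 against 21.7, 32.8 and 15 (log2 difference -2.85, SE 0.39, adjusted p = 9.4e-05). Lgr4, the widely expressed member, had 7.83, 12.5 and 18.6 against 40.1, 50.9 and 58.7 (log2 difference -1.92, SE 0.31, adjusted p = 0.00027). Every sheath-labelled library was above every papilla library for these 3 receptors. The ubiquitin ligases Rnf43 and Znrf3, which remove Frizzled receptors and are inhibited by R-spondin, were lower in papilla as well (-2.38, adjusted p = 1.02e-05 for Rnf43 and -1.73, adjusted p = 0.000683 for Znrf3). Frizzled receptors Fzd10 and Fzd7 had 1.77, 3.49 and 0.807 against 23.7, 24.1 and 23.4 and 3.53, 3.73 and 4.33 against 24.6, 21.4 and 20.5 FPKM (-3.13 and -2.25). Fzd3 and Fzd8 did not pass (0.02, adjusted p = 0.962 and -0.38, adjusted p = 0.39), and their signs turned under 6 settings and 1 setting. Median-of-ratios scaling left 4 higher and 11 lower in that list.

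Among the antagonists, Sfrp2 and Sfrp4, secreted Frizzled-related proteins, had 189, 179 and 153 against 5.08, 2.24 and 1.22 and 110, 109 and 60.8 against 0.63, 0.576 and 0.434 FPKM (log2 differences 5.63 and 5.88, adjusted p = 7.24e-07 and 5.09e-07). Wif1, a Wnt inhibitory factor, had 140, 244 and 710 against 40.9, 10.6 and 52 (log2 difference 3.3, SE 0.66, adjusted p = 0.00117), and Sostdc1, an antagonist of both Wnt and BMP, had 52.5, 124 and 328 against 27.4, 15.5 and 8.11 (log2 difference 3.0, SE 0.57, adjusted p = 0.00081). Papilla replicate 4 was the lowest papilla library for Sfrp2 and Sfrp4 and the highest for Wif1 and Sostdc1. Of 8 tested Wnt ligands 1 was called higher in papilla, Wnt2 (2.73, adjusted p = 6.01e-05), which was listed at 0 in the 3 sheath-labelled libraries, and 1 lower, Wnt4, at 3.62, 2.23 and 0.994 against 13, 24 and 14.3 (-2.5, adjusted p = 0.000178). Wnt5a did not pass (-0.15, adjusted p = 0.78; its sign turned under 6 settings), and without papilla replicates 1 and 2 the ligand counts were 1 higher and 4 lower. Of 14 tested Wnt target genes 4 were higher and 5 lower, the latter near the 36.6% of all tested genes. The feedback inhibitors Notum, Nkd2, Nkd1 and Apcdd1 were the 4 higher (2.81, 2.31, 1.53 and 1.21), whereas Lgr5, Ccnd1, the cyclin D1 gene (-2.59), Tcf7 (-1.63), Tnfrsf19 (-1.34) and Tcf7l2 (-0.92) were lower. Notum and Apcdd1 are also counted among the antagonists, and Lgr5 among the receptors, so these tallies share members. The call of Tcf7l2 was lost under 10 settings (highest adjusted p = 0.323). Axin2, a common reporter of Wnt activity, had 8.9 ± 7.45 FPKM in papilla and 7.6 ± 1.82 in the sheath-labelled libraries (-0.03, adjusted p = 0.952). Its sign turned under 7 settings, and papilla replicate 4 alone gave a call toward papilla (1.12, adjusted p = 0.022).

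BMP ligands and their antagonists leaned to papilla while most responders leaned away. Of 19 tested BMP ligand, antagonist and receptor genes 11 were higher in papilla and 2 lower (median 1.54). The ligand genes Bmp4 and Bmp3 had 12.8, 21.1 and 51.6 against 6.44, 2.67 and 4.52 (2.24, adjusted p = 0.00233) and 5.51, 8.26 and 9.2 against 0.67, 0.65 and 0.696 (2.35, adjusted p = 2.77e-05). The antagonist genes Chrdl1, Chrd and Nog differed by 3.92, 1.97 and 1.9. Bmpr1a and Bmpr2, receptors, were the 2 lower ones, with Bmpr1a at 12, 15.3 and 17.7 against 39.8, 39.3 and 37 FPKM (-1.33, adjusted p = 0.00101). The call of Bmpr2 was lost under median-of-ratios scaling and quantile normalization (highest adjusted p = 0.144). Of 10 tested BMP response genes 6 were lower in papilla and none higher (median -1.15), and 3 were lower without papilla replicates 1 and 2. Id1, an inhibitor of differentiation and a direct responder, had 7.73, 22.2 and 35 against 111, 208 and 78.7 (log2 difference -2.67, SE 0.48, adjusted p = 0.000605). Msx2, a homeobox responder, had 5.7, 10.2 and 8.99 against 90.8, 90.6 and 40.7 (log2 difference -2.96, SE 0.39, adjusted p = 7.17e-05). Smad6 and Smad7, feedback inhibitors of the pathway, did not pass (-0.69, adjusted p = 0.0861 and -0.05, adjusted p = 0.856), and Smad7 turned sign under 5 settings.

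Hedgehog genes included 3 higher in papilla and 8 lower of 14 tested (median -0.84). Shh, the ligand, stood at 0.708, 1.2 and 1.4 against 3.13, 1.88 and 1.48 FPKM and did not pass (-0.57, adjusted p = 0.134). Hhip, a decoy receptor that binds the ligand, had 13.5, 27 and 93.9 against 6.55, 2.25 and 4.12 (log2 difference 2.75, SE 0.59, adjusted p = 0.00198), and the co-receptor genes Cdon and Gas1 differed by 2.03 and 1.52. Those 3 were the ones higher in papilla, while the co-receptor gene Boc was lower (-0.82, adjusted p = 0.0186). The receptor gene Ptch1, which is also a pathway target, had 6.49, 7.58 and 17.6 against 45, 57.7 and 53.5 (-2.31, adjusted p = 0.000506). Gli1, a transcriptional effector and target, had 6.4, 7.38 and 12.4 against 41.9, 61 and 45.3 (log2 difference -2.4, SE 0.31, adjusted p = 5.62e-05). Smo, the transducer, and Gli2 were lower too (-1.7 and -1.54). For Ptch1 and Gli1 the 3 papilla values lay below the 3 sheath-labelled values.

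FGF genes did not separate ligands from receptors, with both kinds among the 7 higher in papilla and the 3 lower of 13 tested. Fgf7 and Fgf10, both ligands of an epithelial receptor form, had 51.4, 76.1 and 335 against 17.2, 2.93 and 2.51 (log2 difference 4.13, SE 0.76, adjusted p = 0.000678) and 16.6, 24.8 and 119 against 4.76, 1.25 and 1.53 (log2 difference 3.57, SE 0.59, adjusted p = 0.000339). The receptor genes Fgfr2 and Fgfr3 had 17.1, 21.1 and 31.3 against 49.2, 54.1 and 51.8 (-1.17, adjusted p = 0.00111) and 2.99, 5.31 and 6.49 against 17.7, 34.7 and 37.3 (-2.36, adjusted p = 0.000205). Fgfr1, the receptor common in mesenchyme, was higher in papilla (1.04, adjusted p = 0.00393). Also higher were the receptor gene Fgfr4 (1.53, adjusted p = 0.00188) and the receptor-like gene Fgfrl1 (1.1, adjusted p = 0.0143). The lower ligand was Fgf5, an inhibitor of hair growth (0.81, 1.53 and 0 against 4.81, 9.88 and 10.5; -2.43, adjusted p = 0.000564), with 1 papilla library listed at 0. The call of Fgfr2 ended without papilla replicates 1 and 2.

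**Figure D3:**
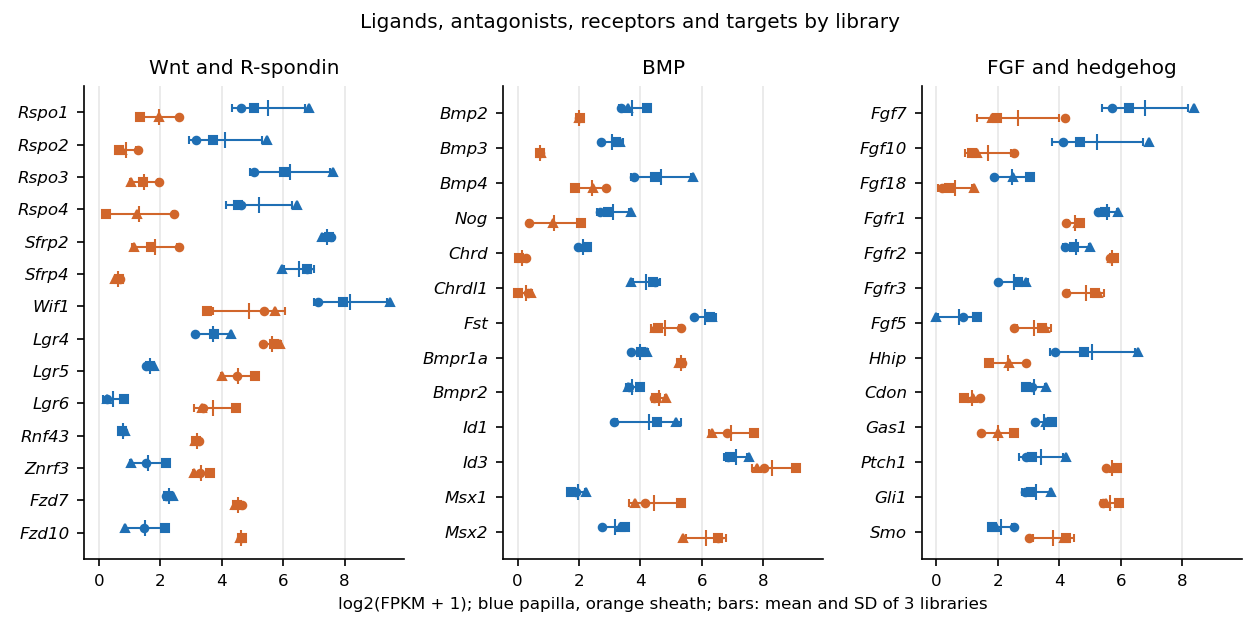
Values of each library as log2(FPKM + 1) for genes of 3 signalling pathways, blue for papilla and orange for sheath-labelled libraries, with bars for the mean and SD of 3 libraries. The 4 R-spondin genes lie to the right in papilla and Lgr4, Lgr5 and Lgr6 to the right in the sheath-labelled libraries.

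Further signalling families were tallied in the same way. Of 17 tested IGF and PDGF genes 11 were higher in papilla and none lower, with Igf1 at 39.6, 35.8 and 50.5 against 0.644, 0.264 and 0.937 FPKM (4.74, adjusted p = 3.59e-07), Igfbp6 at 5.02, adjusted p = 1.98e-06 and Pdgfrl at 4.47, adjusted p = 2.58e-05. The receptor genes Igf1r and Igf2r did not pass (-0.54, adjusted p = 0.109 and -0.53, adjusted p = 0.161). Of 20 tested TGF-beta and activin genes 9 were higher and 5 lower, with the activin subunit gene Inhba at 40.7, 61.6 and 166 against 8.57, 2.09 and 7.01 (3.62, adjusted p = 9.65e-05) and the ligand gene Tgfb1 lower (-1.01, adjusted p = 0.0257), a call lost under 8 settings (highest adjusted p = 0.16). Of 16 tested Notch genes 1 was higher and 9 lower. The Notch ligand gene Jag2 had 0.986, 1.23 and 1.57 against 17.8, 36.9 and 26.8 (-3.59, adjusted p = 2.77e-05), Notch1 had 5.08, 11.2 and 6.17 against 33.3, 39.4 and 71.5 (-2.52, adjusted p = 8.61e-05), and the effector gene Hey2 was the 1 higher (2.31, adjusted p = 0.00239). Of 16 tested retinoic acid genes 5 were higher and 6 lower, beside 17.2% and 36.6% of all tested genes. The receptor genes Rara, Rxra and Rxrb were among the lower (-0.92, -0.98 and -0.77), and all 3 lost their calls under median-of-ratios scaling. Among 22 tested ephrin, semaphorin, netrin and slit ligands, which guide cells and axons, 6 were higher and 10 lower, beside the same 17.2% and 36.6%. Sema3b stood at 2.94 and Sema3e at -1.88.

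Genes of DNA replication and mitosis lay on the sheath-labelled side. All 35 tested S phase genes were lower in papilla (median -3.05), as were all 39 tested mitosis genes of 40 listed (median -3.35), with the same counts under median-of-ratios scaling. Summed over the mitosis list the papilla libraries had 61.8, 104 and 70.6 FPKM and the sheath-labelled libraries 1336, 1401 and 955. Mki67, the Ki-67 proliferation antigen, had 3.17, 6.74 and 3.94 against 102, 90.7 and 108 (log2 difference -4.22, SE 0.32, adjusted p = 1.95e-06; chromosome 7, 135689784 to 135716450). Top2a, DNA topoisomerase II alpha, had 4.05, 10.5 and 4.3 against 123, 124 and 82.5 (log2 difference -4.01, SE 0.44, adjusted p = 1.76e-05), and Rrm2, a ribonucleotide reductase subunit, 0.917, 0.733 and 0.603 against 33.7, 52.5 and 25 (log2 difference -4.38, SE 0.36, adjusted p = 3.09e-06). Prim1, the primase subunit, had 7.83, 4.26 and 0.429 against 92.7, 67.9 and 59.8 (log2 difference -4.18, SE 0.52, adjusted p = 4.41e-05) and Ect2, a regulator of cytokinesis, 1.16, 1.17 and 1.54 against 34.9, 33.8 and 29 (log2 difference -3.87, SE 0.39, adjusted p = 1.02e-05). No papilla library reached a sheath-labelled library in any of these genes. Inhibitors of the cycle did not form one side: of 14 tested, 5 were higher in papilla, among them Cdkn1c (1.66, adjusted p = 0.00476) and Cdkn1a (1.47, adjusted p = 0.00997), and 3 were lower, Rbl1, Rb1 and Cdkn1b (-3.18, -1.55 and -1.28). In papilla replicate 4 alone 2 inhibitors were higher, and Cdkn1a was not called.

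Because these genes differed together, promoter sequence was examined for 2 short elements known from cell cycle promoters, the CCAAT box bound by the factor NF-Y and the TTTGAA core of the cell cycle homology element. Each window ran from 250 bases before to 50 after an annotated start, from RefSeq on GRCm38.p6, and both strands were searched. Matches may overlap by a base. Of 35 promoters of 33 mitosis genes, 77.1% held CCAAT and 77.1% held TTTGAA. Of 36 promoters of 29 S phase genes, 55.6% held CCAAT and 11.1% TTTGAA. Of 11473 promoters of all tested genes, 4243 held CCAAT and 1379 held TTTGAA. Among all 32851 RefSeq promoters given, 37.4% and 17.9% did. A match describes letters in a window and not a bound site. Shown are 120 bases before the start for a pair of genes from each list, so that the letters behind these shares can be seen, with every match to either element on either strand in capitals. They were selected for their matches: the genes with the largest differences whose stretch holds both elements, for mitosis, or CCAAT, for S phase.
Top2a (chr11:99024190-99024309, minus strand): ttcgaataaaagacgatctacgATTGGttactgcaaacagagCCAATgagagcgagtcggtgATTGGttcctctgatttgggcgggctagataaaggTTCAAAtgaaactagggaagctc
Ect2 (chr3:27153879-27153998, minus strand): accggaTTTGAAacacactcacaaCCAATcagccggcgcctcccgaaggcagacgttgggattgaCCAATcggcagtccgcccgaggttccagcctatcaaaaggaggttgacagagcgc
Rrm2 (chr12:24708134-24708253, plus strand): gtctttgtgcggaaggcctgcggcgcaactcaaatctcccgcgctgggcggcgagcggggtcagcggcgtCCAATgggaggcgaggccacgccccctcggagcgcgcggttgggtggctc
Prim1 (chr10:128015095-128015214, plus strand): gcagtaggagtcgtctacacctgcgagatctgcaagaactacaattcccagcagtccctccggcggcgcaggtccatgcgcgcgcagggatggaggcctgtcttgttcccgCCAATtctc
The stretches of Top2a and Ect2 hold 4 and 3 matches, and those of Rrm2 and Prim1 hold 1 each.

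Genes of ribosome biogenesis also lay on the sheath-labelled side. Of 35 tested ribosome biogenesis genes 34 were lower in papilla (median -1.39), and 28 under median-of-ratios scaling. Mybbp1a, of ribosomal DNA transcription, had 7.51, 8.71 and 3.9 against 39, 45.1 and 46 FPKM (-2.58, adjusted p = 1.1e-05), and Nolc1, a nucleolar phosphoprotein, 10.6, 11 and 8.8 against 45.6, 60.9 and 45.9 (-2.21, adjusted p = 1.16e-05). Of 34 tested oxidative phosphorylation genes 23 were lower and none higher, but 13 under median-of-ratios scaling (median -0.95). Atp5b, the ATP synthase beta subunit, had 122, 157 and 105 against 382, 459 and 379 (-1.67, adjusted p = 0.00015). Glycolysis genes were mostly not called, 3 higher and 2 lower of 17 tested, with the hexokinase gene Hk2 higher in papilla (1.88, adjusted p = 0.000185). The 2 lower, Tpi1 and Pkm, lost their calls under 6 and 8 settings. Gapdh, Pgk1, Pgam1 and Eno1 were listed at no more than 1.12 FPKM in any library and were not tested. For such core enzymes these values may be failed estimates, so the tally covers part of the pathway. Of 37 tested ribosomal protein genes 13 were lower (35.1%, near the 36.6% of all tested genes), 5 under median-of-ratios scaling. The list held 51 genes, and some untested ones, such as Rpl11 at no more than 0.617 FPKM in any library, may be failed estimates too.

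Epithelial genes did not behave as one list. Of 22 tested hair matrix regulators 14 were lower in papilla and none higher (median -2.09), and 17 were lower without papilla replicates 1 and 2, with 1 higher. Edar, the ectodysplasin receptor of placodes and matrix, had 0, 0.0755 and 0.0993 FPKM against 10.1, 8.23 and 6.06 (-3.09, adjusted p = 3.09e-06), and Foxn1, a driver of hair keratinisation, 1.55, 3.17 and 0.0448 against 7.03, 6.94 and 7.16 (-1.85, adjusted p = 0.00384). Of 14 tested basal keratinocyte genes 6 were lower and 1 higher, beside 36.6% and 17.2% of all tested genes. Trp63, the master regulator of stratified epithelium, had 24.8, 14.8 and 8.86 against 116, 147 and 98.7 (log2 difference -2.92, SE 0.35, adjusted p = 3.24e-05), and Cdh3, the P-cadherin of matrix and germ, 8.79, 3.43 and 5.31 against 53.9, 76.3 and 39.6 (-3.1, adjusted p = 2.19e-05). Both groups were thus well above 0 for Trp63, with papilla replicate 1 the highest of the papilla libraries. Dapl1 was the basal gene higher in papilla (2.73, adjusted p = 0.000396). Krt14 and the adhesion genes Epcam and Cdh1 did not pass (0.33, adjusted p = 0.48 for Krt14, -0.35, adjusted p = 0.45 for Epcam and 0.3, adjusted p = 0.579 for Cdh1). Their signs turned under some settings, as Krt14 did without papilla replicate 2 (-0.02), Epcam without papilla replicate 4 (0.14) and Cdh1 without papilla replicate 1 (-0.05). Without papilla replicates 1 and 2 together Krt14, Epcam and Cdh1 stood at -0.35, -1.33 and -0.74.

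Differentiated epidermis genes went the other way from basal regulators, 13 higher in papilla and none lower of 20 tested (median 2.79). Krt10 had 1959, 2052 and 571 against 101, 11.5 and 47.4 FPKM (log2 difference 5.06, SE 0.66, adjusted p = 6.69e-05) and Krt77 630, 750 and 174 against 51.1, 5.58 and 19.7 (4.5, adjusted p = 0.000143). Replicate 4 was the highest papilla library for none of the 20, and without replicates 1 and 2 the counts were 8 higher and 2 lower. Among follicle stem cell and outer root sheath genes 7 were higher and 9 lower of 20 tested, beside 17.2% and 36.6% of all tested genes. Cd34 (4.24, adjusted p = 3.09e-06) and Postn (3.52, adjusted p = 3.86e-05), which fibroblasts also express, were higher. Tbx1 (-3.49, adjusted p = 1.52e-05), a bulge stem cell factor, was lower. Of 22 tested inner root sheath and hair shaft genes 1 was higher and 3 lower. Papilla replicate 2 was the highest papilla library for all 22, and 6 were lower and none higher without replicates 1 and 2. Krt28, of the inner root sheath, had 16, 38 and 2.6 against 167, 154 and 200 (-3.7, adjusted p = 0.00071). Of 28 tested epithelial adhesion genes 1 was higher and 7 lower, or none and 13 without those 2 replicates.

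**Figure D4:**
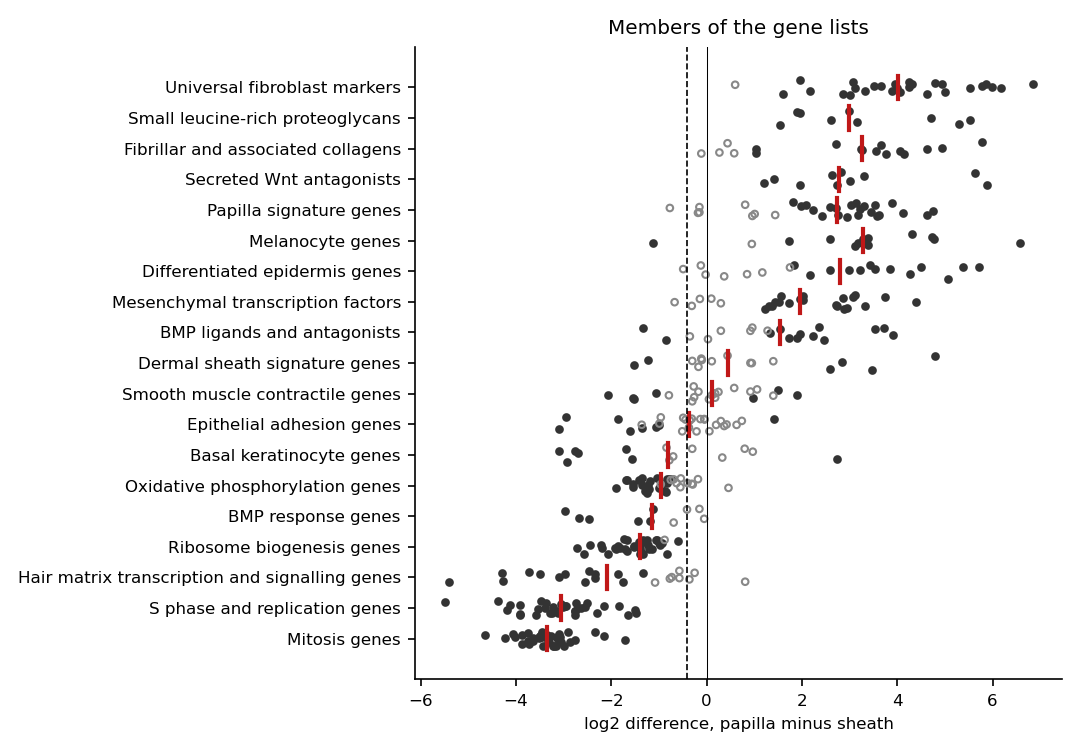
Each point is a tested list member placed at its log2 difference, papilla minus sheath-labelled, filled where called and open where not. Red bars are list medians and the dashed line is the all-gene median of -0.42. Fibroblast marker, proteoglycan and collagen lists lie at the right, S phase and mitosis lists at the left, and contractile genes near 0.

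Contractile and sheath genes, by which the dermal sheath is known, did not favour the sheath-labelled libraries as a group. Of 15 tested sheath signature genes 4 were higher in papilla, 2 lower and 9 not called (median 0.44). Pcolce2, Tnmd, Abi3bp and Ednrb were the 4 higher, with Tnmd, the tendon and matrix gene tenomodulin, at 38.2, 26.5 and 67.9 against 0.295, 10.8 and 2.49 FPKM (3.48, adjusted p = 0.00171). Tagln, an actin-binding protein, and Mcam, an adhesion molecule of mural cells, were the 2 lower, with 29.4, 60.9 and 25.4 against 99.6, 258 and 44.8 (-1.53, adjusted p = 0.0263) and 7.26, 11.6 and 8.99 against 20, 28.6 and 20.3 (-1.22, adjusted p = 0.00278). The Tagln ranges overlapped, and its call was lost under 7 settings (highest adjusted p = 0.126). Of 21 tested smooth muscle genes 3 were higher and 4 lower (median 0.11), beside 17.2% and 36.6% of all tested genes. Smtn, the smoothelin gene, had 11, 10.7 and 10 against 33.6, 67.5 and 46.6 (-2.06, adjusted p = 0.000123), and Actn1 was lower too (-1.54, adjusted p = 0.000171). The gamma smooth muscle actin gene Actg2 was higher in papilla at 14.9, 17.2 and 9.72 against 7.19, 2.31 and 4.06 (1.5, adjusted p = 0.00347), a call not held by papilla replicate 4 alone. Itga8, an integrin chain of the sheath, did not pass (0.586, 4.38 and 6.44 against 0.654, 0.626 and 2.3 FPKM; 0.95, adjusted p = 0.115), though it was called without papilla replicate 1. Myh11, the smooth muscle myosin heavy chain, had 5.92, 18.4 and 8.63 against 2.22, 0.234 and 16.6 (1.4, adjusted p = 0.185), with overlapping values and a sheath-labelled group that ran from 0.234 to 16.6. It was called without sheath-labelled replicate 1 (adjusted p = 0.0158).

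Positional and stimulus-linked genes added smaller groups. Of 24 tested Hox genes, which mark body position, 4 were higher in papilla, near the 17.2% of all tested genes, and 12 lower (median -0.88). Hoxb8 had 0.357, 1.6 and 3.2 against 22.4, 24.5 and 12.3 FPKM (-3.02, adjusted p = 5.7e-05) and Hoxc13, needed for hair shaft formation, 0.571, 4.4 and 0.18 against 12.4, 18.8 and 6.55 (-2.55, adjusted p = 0.0014). Hoxc10 was among the 4 higher (2.48, adjusted p = 0.00148) with Hoxc4, Hoxc9 and Hoxd8, the last losing its call under 5 settings. Of 15 tested chemokine genes 10 were higher and 1 lower. Ccl7, a monocyte attractant, had 1049, 984 and 818 against 36.5, 4.67 and 55.9 (5.37, adjusted p = 7.95e-05) and Ccl2 1250, 1438 and 697 against 62.8, 20.4 and 80.2 (4.49, adjusted p = 5.53e-05). Of 12 tested interferon response genes 7 were higher and none lower, or 4 and 1 without papilla replicates 1 and 2, with B2m at 2.68, adjusted p = 9.12e-05. Immediate early genes, which tissue dissociation can induce, were 5 higher, near the 17.2% of all tested genes, and 2 lower of 23 tested, or 11 and 1 under median-of-ratios scaling. Dusp1 had 421, 377 and 316 against 66, 89.4 and 108 (2.09, adjusted p = 3.28e-05) and Egr3 18.6, 23.6 and 5.92 against 47.8, 49.6 and 54.1 (-1.78, adjusted p = 0.00242).

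Markers of other skin cells differed by list and by papilla library. Of 13 tested melanocyte genes 11 were higher in papilla and 1, Kit, lower (a call lost under 8 settings), with Dct, a pigment enzyme, at 299, 226 and 80.2 against 7.17, 5.77 and 4.48 FPKM (4.72, adjusted p = 0.000164). Replicate 1 was the highest papilla library for 11 of the 13. Of 21 tested immune genes 12 were higher and 1 lower, but 2 and 1 without papilla replicates 1 and 2. C1qa, a macrophage complement gene, had 105, 36.3 and 15.5 against 0.301, 0.345 and 4.74 (4.22, adjusted p = 0.00663), and its call ended under that setting. Replicate 1 was the highest papilla library for 15 of the 21 immune genes. Of 17 tested endothelial and mural genes 4 were higher, beside 17.2% of all tested genes, and 1 lower, or none and 2 without those replicates. Schwann cell genes were 6 higher and 2 lower of 11 tested. How far these cell types account for differences in other lists was not tested.

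Some genes were listed at 0 in every library of one group, which in a table without counts can also be a failed estimate. At 0 in the sheath-labelled group and at 5 FPKM or more in each papilla library were 9 genes, and the reverse held for 7. Pmel, a melanosome gene, was listed at 199, 133 and 30.9 FPKM in papilla, Kdelr3, a retention receptor of the secretory pathway, at 81.7, 52.9 and 60.2 and Ndufa4l2 at 85.2, 43.2 and 28.5, each with 0 in the sheath-labelled libraries. In the other direction Polr2b, the second subunit of RNA polymerase II, was listed at 0 in papilla and at 38.4, 34.7 and 40.4 FPKM in the sheath-labelled libraries. All cells need this subunit, so its 0 is reported only as listed. Rfc4 and Pold2, both of DNA replication, were likewise listed at 0 in papilla and at 43.8, 50.5 and 38.3 and 31.2, 44.8 and 26.3. Across the 6 libraries 62 genes had a 0 in one library and more than 10 FPKM in another of the same group.

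The papilla minus sheath-labelled difference was set against the dermal stem cell minus interfollicular dermis difference, which shares no library with it. The libraries labelled interfollicular dermis go against their label too. Their universal fibroblast sums were 1047, 1585 and 2208 FPKM against 15776, 16042 and 21344 in the dermal stem cell libraries, and their mitosis sums 990, 923 and 686 against 70.7, 209 and 168. Col1a1 stood at 23.2, 152 and 415 FPKM in interfollicular dermis and 2639, 2405 and 3230 in dermal stem cells, and Krt5 in interfollicular dermis at 305, 430 and 398. Both comparisons thus set a fibroblast-rich group against one low in fibroblast transcripts, which touches every value below. Greater and smaller keep the sign here, so a smaller difference can be one further below 0. The 2 differences were unlike each other in 1063 of the 11604 genes (9.16%), with the first greater in 359 (3.09%) and smaller in 704 (6.07%). Of the 6248 genes called between papilla and sheath-labelled libraries, 803 (12.9%) were among them. Acta2 stood out here, at -0.3 in one and 6.53 in the other comparison, so the difference of differences was -6.83, adjusted p = 0.000149. For Tagln it was -6.82, adjusted p = 0.000266 and for Actg2 -5.48, adjusted p = 0.000149. Of 21 tested smooth muscle genes 16 were smaller in the papilla comparison and none greater, and of 15 tested sheath signature genes 9 were smaller and 2 greater. Mcam and the tropomyosin gene Tpm1 also gave -4.39, adjusted p = 0.000149 and -4.22, adjusted p = 0.000179.

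Papilla signature and pigment genes gave the reverse. Of 30 tested papilla signature genes 9 had a greater difference and none a smaller one. Rspo3 differed by 4.75 between papilla and sheath-labelled libraries and by -0.06 between the other pair (4.82, adjusted p = 0.00201), and Crabp1 by 4.62 and -0.21 (4.84, adjusted p = 0.0085). The Wnt antagonist Sfrp4 gave 4.14, adjusted p = 0.000577. Of 13 melanocyte genes 10 had a greater difference, with Mlana at 4.77 and -3.35 (8.12, adjusted p = 0.000405). Shh did not pass between papilla and sheath-labelled libraries but fell by 5.42 on the log2 scale from interfollicular dermis to dermal stem cells (4.85, adjusted p = 0.000149).

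R-spondin receptors were among the genes with a smaller difference, here one further below 0. Lgr6 differed by -3.28 and 0.3 (-3.58, adjusted p = 0.000841) and Lgr5 by -2.85 and 0.25 (-3.11, adjusted p = 0.00535). Gli1 gave -2.4 against 1.15 (-3.55, adjusted p = 0.000533). In the mitosis list 1 of 39 tested genes had unlike differences, and the same held for 11 of 35 S phase genes. All of these S phase genes were further below 0 in the papilla comparison, as was Rrm2 at -4.38 and -1.58. Mki67, at -4.22 and -3.0, did not pass (-1.22, adjusted p = 0.112), and neither did Trp63, at -2.92 and -2.51 (-0.41, adjusted p = 0.637), nor Col1a1, at 4.63 and 4.57 (0.07, adjusted p = 0.979). A difference that does not pass is not shown to be the same in both comparisons.

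**Figure D5:**
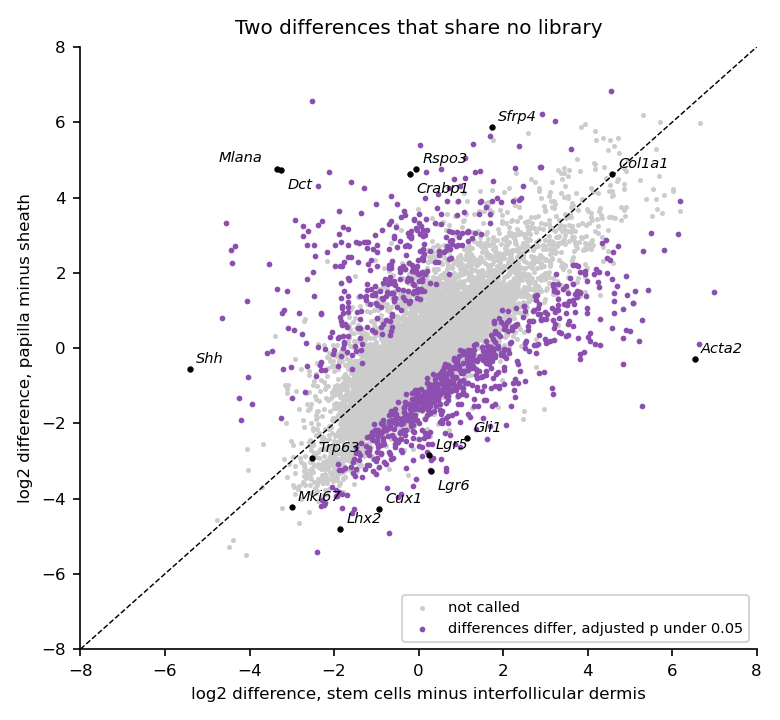
Each point is a tested gene, placed by its log2 difference between dermal stem cells and interfollicular dermis (horizontal) and between papilla and sheath-labelled libraries (vertical), with the line of equal differences dashed. Purple marks the 1063 genes whose 2 differences were unlike at an adjusted p under 0.05, and black labelled points are genes named in the text. Acta2 lies far right of the line and Mlana and Dct far left.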

How the data were processed

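Gene levels were measured by RNA sequencing of sorted cells, and the deposited table gives FPKM for 24692 entries in 12 libraries. TopHat2 2.0.13, SAMtools, Cufflinks 2.2.1 and the mm10 build are named in the submitters' processing notes, and the labels' protocols give the sorting and the mRNA kit. The FPKM values deposited by the authors keep no read counts, so no count model was used and depth is unknown.

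Entries with at least 1 FPKM in at least 3 of the 6 libraries were tested, after a log2(FPKM + 1) transform, by moderated linear models (limma 3.58.1, R 4.3.3; trend, empirical Bayes). The model had 4 population means over 12 libraries. It was tested on simulated data. A second contrast compared the papilla minus sheath-labelled with the stem cell minus interfollicular difference. P-values were two-sided and Benjamini-Hochberg adjusted at 0.05. Members and lists were chosen with earlier results of these data known, so lists are described by counts and medians. Named genes were the 15 largest non-overlapping differences each way with at least 5 FPKM in the higher group and no 0, up to 4 such members a list, genes listed at 0 in one group, the 8 largest differences of differences each way, members called against their list, and fixed markers. Other members named for a pathway were chosen after their values were seen. By older symbol 3 list members were matched, and Flg, Adgre1 and Trdc were not found. Promoters came from RefSeq (GRCm38.p6). Alternatives changed the pseudocount, filter, scaling, samples, weights and replicate block, and left out each library. A few list members are counted in their lists and otherwise not reported here.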

Additional observations from a re-analysis of the deposited data

How the results depend on the processing

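Of 6248 genes called between papilla and sheath-labelled libraries, between 4346 (without papilla replicates 1 and 2) and 6164 kept their call over the settings run, and none of the shared calls changed sign. The 5 FPKM filter gave 1310 higher in papilla and median-of-ratios scaling gave 2646 higher in the sheath-labelled libraries. Leaving out each library gave 5157 to 6113 calls, 1731 to 2100 of them higher in papilla and 3426 to 4120 higher in the sheath-labelled libraries. For the difference of differences, the smaller ones numbered 373 after median-of-ratios scaling and 385 after quantile normalization. Array weights gave 1605 in all and 1085 smaller. Leaving out each library gave 589 (without sheath-labelled replicate 5) to 1384 (without papilla replicate 4) in all, 227 to 562 greater and 362 to 822 smaller, the same libraries giving both ends. The cause was not tested. Replicate numbers 1 and 4 occur in both groups; deviations of same-numbered libraries correlated at 0.167 and 0.0566, so the numbers are not shown to pair libraries. With a replicate block 5645 genes were called, and 222 greater differences of differences.

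Leaving out papilla replicates 1 and 2 keeps 1 papilla library, assumed to vary like the other groups. Signs turned for 11 named genes, none called as reported. Acta2 ranged from -0.89 (without papilla replicate 2) over libraries left out, and was 0.15 after median-of-ratios scaling, 0.12 without papilla replicate 4 and 0.06 without sheath-labelled replicate 5. Krt14 was -0.02 without papilla replicate 2, 0.68 without replicate 4 and -0.35 without papilla replicates 1 and 2. Epcam was 0.10 after median-of-ratios scaling, -0.69 without papilla replicate 2, 0.14 without replicate 4 and -1.33 without papilla replicates 1 and 2. Cdh1 was -0.03 with the block, -0.05 without papilla replicate 1, 0.83 without replicate 4 and -0.74 without replicates 1 and 2, where Lef1 was 0.24. Axin2 was 0.36 after median-of-ratios scaling, 0.31 after quantile normalization, 0.03 with the block, -0.61 (without papilla replicate 4) to 0.38 (without replicate 1) over libraries left out, and 1.12 without papilla replicates 1 and 2, where it was called. Snai2 was 0.29, 0.21 and 0.00 under the same scalings and block, -0.55 to 0.14 over libraries left out and 0.70 without papilla replicates 1 and 2. Wnt5a was 0.27, 0.20 and 0.35, then -0.55 to 0.23 and 0.41. Smad7 was 0.36 and 0.31 after those scalings, 0.04 with array weights and -0.16 to 0.09 over libraries left out. Fzd3 was -0.10 with a pseudocount of 0.1, -0.15 with array weights, -0.01 with the block and -0.22 to 0.31 over libraries left out. Fzd8 ran from -0.63 to 0.02 over libraries left out and was -1.17 without papilla replicates 1 and 2. Of 301 named genes, a count without Boc, 255 to 299 kept direction and call under each setting. A filter can also leave a gene untested. Without read counts, the precision of low values cannot be given.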
